A study of Mus musculus with 4 samples.

Results

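The proteasome subunit genes are the 42 genes measured here whose symbols begin with Psma, Psmb, Psmc, Psmd or Psme and end in a number. They were found through the transcript accession that the array design gives each probe. All 42 were tested, among 15532 genes in all. They comprise 7 alpha ring genes, 11 beta ring genes, 6 ATPase genes, 14 other genes of the regulatory particle and its assembly, and 4 activator genes. Psma8 was not analysed here.

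The data are 4 two-colour Agilent arrays of whole pancreas from C57BL/6JNarl mouse embryos at stage E18.5, shortly before birth. Each array held total RNA of a Cyp11a1 knockout pancreas, labelled with the red dye Alexa 647, against total RNA of a wild-type pancreas, labelled with the green dye Alexa 555. The design counts 4 knockout and 4 wild-type biological replicates, and the arrays are numbered 1 to 4 as the labels number them. No array had the dyes swapped, so an effect of the dye and an effect of the genotype cannot be told apart for any gene below. The labels state neither the kind of deletion nor how many embryos went into an extract, so p-values measure the spread between these arrays. Cyp11a1 encodes the enzyme that makes pregnenolone from cholesterol, the first step of steroid synthesis.

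The proteasome is the protease complex that degrades proteins tagged with ubiquitin. Its barrel, the core particle, is built of alpha rings that gate the entry and beta rings that carry the cutting sites. A regulatory particle binds the tagged protein, removes the ubiquitin, unfolds the chain with a ring of ATPases and feeds it into the barrel, and activator rings can take its place. Interferon gamma exchanges the catalytic beta subunits for counterparts that favour peptides for antigen presentation. Acinar cells of the exocrine pancreas make digestive enzymes in bulk, and misfolded chains from their endoplasmic reticulum are degraded by the proteasome.

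Most proteasome subunit genes gave slightly more signal in the knockout than in the wild type, and for 11 of them, led by the activator gene Psme1 and the beta ring genes, the difference passed the test. Values are log2 ratios of knockout over wild type after the dyes were balanced within each array, so that 0 means equal signal, and a ratio of 1.33-fold, the highest in the family, is 0.41 on this scale. Of the 42 genes, 11 were higher in the knockout at a limma adjusted p below 0.05 and none was lower, which is 26.2% against 9.45% of all genes tested that were higher. Across all genes 5.11% were lower, and 14.6% passed in either direction. At an unadjusted p below 0.05, 30 members were higher and 1, Psmd3, was lower, against 19% and 11.7% of all genes. The median ratio of the family was 0.145, with the middle part of the genes from 0.102 to 0.182 (quartiles), against 0.0126 for all genes tested. The ratio was above 0 for 38 of the 42 genes, against 54.6% of all genes.

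The family medians on arrays 1 to 4 were 0.126, 0.183, 0.116 and 0.138, so each array placed the family above 0. On all 4 arrays 29 members had ratios above 0, where 23.7% of all genes did, and Psmd3 and Psmd14 had ratios below 0. The members were bright, with a median at percentile 82 of signal, so the 3883 brightest genes are a closer background. Of these, 12.2% were higher and 7.78% lower, 50.4% had ratios above 0 and 25.5% had them above 0 on all 4 arrays. Their median ratio was 0.0016.

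**Figure D1:**
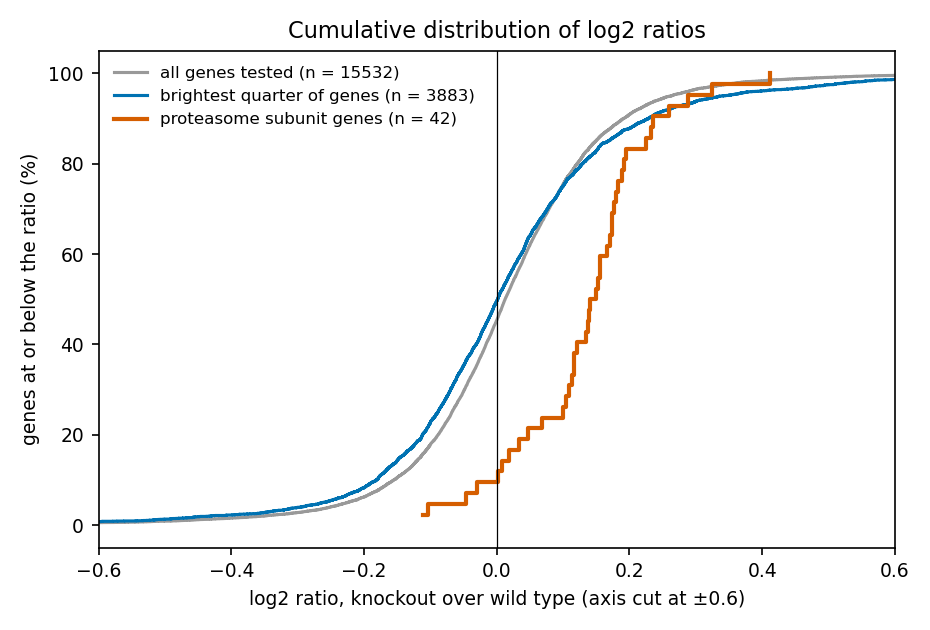
Cumulative share of genes (vertical axis, percent) at or below each log2 ratio of knockout over wild type (horizontal axis, cut at both ends) for the 42 proteasome subunit genes, all 15532 genes tested and the 3883 brightest. The family's curve lies to the right of both others over most of its range, with its median at 0.145, and the curves come together near the top.

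The balance of the dyes set where 0 lies. With each array only centred on its median, the members' median was 0.564, that of all genes 0.255 and that of the 3883 brightest genes 0.477. The family then stood 0.309 above all genes, and 32 of its 42 members lay above the median of those brightest genes. In that setting 61% of all genes were higher in the knockout. The count of 11 also rested on few arrays: without array 1, 2, 3 or 4 it was 5, 7, 4 and 1, against 4.96%, 6.4%, 4.1% and 4.13% of all genes that were higher, while the family median stayed between 0.133 and 0.154. With the arrays scaled to a common spread of ratios, 4 members were higher (Psme1, Psmb4, Psmb6 and Psmc3), against 4.5% of all genes. With Feature Extraction's own log ratio the calls of Psmb1, Psmb2, Psmd4 and Psmd6 were lost, at limma adjusted p-values of 0.0557, 0.0917, 0.0811 and 0.125, while Psmc1 and Psmd11 passed at 0.21 and 0.19. With the knockout and wild-type signals compared as unpaired groups none was higher, against 0.489% of all genes, and 9 were higher at an unadjusted p below 0.05, where 8.3% of all genes were. In whole-tissue RNA, more cells of a type and more RNA per cell cannot be told apart.

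Between 78.2 and 85.1% of the spots of an array were well above background in a dye, and the median signals were 304 to 467 in red and 163 to 224 in green. The probe for Cyp11a1 gave ratios of -0.19, -0.40, 0.013 and -0.072 on arrays 1 to 4, a mean of -0.16 with a limma adjusted p of 0.165. The labels do not say which part of the gene was deleted, so this probe does not check them. Several markers of hepatocytes and red cells had ratios whose sign changed between arrays. Albumin (Alb) had ratios of 4.13, 2.70, -3.52 and 1.44. The mean for Alb was 1.19 (limma adjusted p 0.48). Leaving out array 3, the only array below 0 for Alb, gave 2.76 (limma adjusted p 0.00984). Without array 1, 2 or 4 Alb did not pass, with means down to 0.207 and limma adjusted p-values up to 0.925. Of the hepatocyte markers 7 of 9 were tested, with array medians of 1.82, 0.786, -0.478 and 0.612. Of the red cell markers 5 of 7 were tested, with array medians of 0.489, 0.0818, -0.467 and 1.11. Both lists were below 0 on array 3, where the family median was 0.116. The pancreas markers were bright, at median percentiles of 99.5 for acinar and 89.7 for endocrine genes, and 3 of 11 acinar markers were higher and 4 lower in the knockout. Other lists also kept 1 sign on every array. Endothelial markers had array medians of -0.0873, -0.0836, -0.145 and -0.118, with Tek lower among 7 tested (-0.29, limma adjusted p 0.0260, lost without array 3 or 4, at most 0.0897), and duct markers had array medians of 0.0273, 0.113, 0.107 and 0.108, with none of 6 past the threshold. The part of these cells in the proteasome ratios was not tested.

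RefSeq promoter sequences (GRCm38.p6, 250 bases before to 50 after the start of transcription) were matched to 36 of the 42 genes, in 39 windows. Psmb1, Psmb2, Psmb7, Psmc3, Psmd3 and Psmd7 had no entry. Of these, Psmb1, Psmb2, Psmb7 and Psmc3 were among the 11 higher genes, so their promoters were not searched. Short motifs were looked for on both strands because factors that bind them are known to drive proteasome genes. The CNC or antioxidant element, bound by the factors NRF1 and NRF2, was searched as TGACNNNGC, the interferon gamma element GAS as TTCNNNGAA, the interferon-stimulated response element as GAAA, any pair of bases and GAAA again, and the box of the NF-Y factor as CCAAT. The stretches below, printed 5′ to 3′ on the strand of the gene with the motif in capitals, show 1 or more matches of each kind, for the members whose ratios the text compares. The first pair are the constitutive catalytic genes with the antioxidant letters, Psmb8 is the interferon-induced counterpart of Psmb5, and Psmd4, Psma7 and Psme3 were among the 11 higher genes.
Psmb5 (chr14:54618014-54618062, minus strand, antioxidant element from base -47): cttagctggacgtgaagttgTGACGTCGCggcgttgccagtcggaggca
Psmb6 (chr11:70525328-70525356, plus strand, antioxidant element from base -9): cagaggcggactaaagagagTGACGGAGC
Psmb8 (chr17:34198078-34198126, plus strand, GAS from base -97): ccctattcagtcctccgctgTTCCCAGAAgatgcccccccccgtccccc
Psmd4 (chr3:95042665-95042714, minus strand, response element on the opposite strand from base -80): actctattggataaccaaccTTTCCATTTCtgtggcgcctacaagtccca
Psma7 (chr2:180042636-180042680, minus strand, CCAAT from base -196): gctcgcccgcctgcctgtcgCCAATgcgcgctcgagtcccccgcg
Psme3 (chr11:101316179-101316212, plus strand, CCAAT on the opposite strand from base -14): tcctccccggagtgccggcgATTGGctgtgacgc

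The antioxidant letters were present in 6 of the 39 windows (15.4%), against 12.4% of the 32851 promoter windows of the same length. The 6 genes were Psmb5, Psmb6, Psmc6, Psmd9, Psmd12 and Psme4, of which Psmb6 was higher in the knockout. Of the 36 genes with a window, 7 were higher and 29 were not. The antioxidant letters were thus in 1 of these 7 genes and in 5 of these 29. CCAAT was found in 14 windows (35.9%), against 37.4% of all, and on the strand of the gene alone in 30.8% against 21.1%. It was in 3 of the 7 higher genes and in 11 of the 29 others, though the CCAAT stretches printed above are from higher genes only. The response element was found in 4 windows (10.3%), against 3.44% of all, in Psmb3, Psmd4, Psmd9 and Psme1. Psmd4 and Psme1 were higher, so the element was in 2 of the 7 higher genes and in 2 of the 29 others. On the strand of the gene alone the response element was in 2.56% against 1.74%, and the antioxidant letters were in 7.69% against 6.38%. The GAS letters were found in 2 windows (5.13%), against 8.3% of all, in Psmb8 and Psmd2, neither of which passed the threshold. None of the printed matches overlaps a match of another motif. Each match is a description of letters and not a binding site. Whether a match goes with a higher ratio was not tested.

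Among the alpha ring genes, whose products form the outer rings and the gate, 1 of 7 was higher and all 7 had mean ratios above 0. The share of higher genes was 14.3%, against 9.45% of all genes and near the 12.2% of the brightest genes. Psma7 had ratios of 0.18, 0.46, 0.22 and 0.29 on arrays 1 to 4. All 4 arrays lay above 0, and array 2 was the highest. The mean was 0.29 with a standard error (SE) of 0.057 and a limma adjusted p of 0.0181, which became 0.0644 without array 4 and 0.0364 to 0.0428 without another. The other alpha genes Psma1, Psma2, Psma4, Psma5 and Psma6 had means of 0.10 to 0.19, none past the threshold. A second probe of Psma4 gave 0.22, 0.25, 0.16 and 0.23, with a mean of 0.22 that passed in the fit of all single probes (limma adjusted p 0.0199). Psma1 was measured on 3 arrays. Psma6 was the most even of them, with ratios of 0.087, 0.089, 0.12 and 0.10. Psma3, the lowest of the ring, had ratios of 0.015, 0.22, -0.11 and 0.068 and a mean of 0.048. The ring's medians by array were 0.113, 0.335, 0.0814 and 0.216, so it stood highest on array 2, as Psma2, Psma3, Psma4, Psma5 and Psma7 each did, and array 2 is the one without a value for Psma1.

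Of the 11 beta ring genes, 5 were higher (45.5%, against 9.45% of all genes and 12.2% of the brightest genes). They were Psmb1, Psmb4, Psmb6, Psmb7 and Psmb2. Psmb1 and Psmb4 encode structural beta subunits without a cutting site. Psmb1 had ratios of 0.22, 0.47, 0.13 and 0.48, which split into a low pair and a high pair of arrays above 0. Its mean was 0.33 (SE 0.070, limma adjusted p 0.0228), the highest of the ring, and the adjusted p was 0.0522, 0.0628 and 0.0849 without array 1, 2 or 4. Psmb4 had closer ratios of 0.19, 0.32, 0.28 and 0.25, with a mean of 0.26 (SE 0.045, limma adjusted p 0.0118, and 0.0505 without array 4). Psmb2, another structural subunit, had ratios of 0.098, 0.23, 0.24 and 0.13, with a mean of 0.18 (SE 0.047) and a limma adjusted p of 0.0464, which was 0.0757 to 0.168 with any array left out. Psmb3, also structural, was above 0 on 3 arrays at 0.19, 0.27 and 0.18 and at -0.024 on array 2, with a mean of 0.16 that did not pass, and its second probe had a mean of 0.073.

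The cutting sites of the barrel are made by Psmb6, which cleaves after acidic residues, Psmb7, which cleaves after basic residues, and Psmb5, which cleaves after hydrophobic residues. Psmb6 had ratios of 0.19, 0.23, 0.26 and 0.27. The mean was 0.24 (SE 0.043, limma adjusted p 0.0141), with an adjusted p of 0.0589 without array 3 and 0.0666 without array 4. Psmb7 had ratios of 0.13, 0.26, 0.16 and 0.18 and a mean of 0.18 (SE 0.045, limma adjusted p 0.0381, and 0.0773 to 0.126 with any array left out). Both were above 0 on every array. Psmb5 had ratios of 0.084, 0.27, 0.22 and 0.12, also all above 0, and its mean of 0.17 (SE 0.050) had a limma adjusted p of 0.0567, so it did not pass.

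With the dyes balanced within each array, the interferon-induced counterparts stood nearer to 0, and none of the 3 passed the threshold. Psmb9, which replaces Psmb6, had ratios of 0.083, -0.023, 0.015 and -0.0027 and a mean of 0.018 (95% interval -0.085 to 0.12). Psmb10, which replaces Psmb7, had ratios of -0.043, 0.016, 0.013 and 0.15 and a mean of 0.034 (95% interval -0.080 to 0.15). Psmb8, which replaces Psmb5, had ratios of 0.072, -0.27, 0.012 and 0.072 and a mean of -0.030 (95% interval -0.18 to 0.13). Array 2 alone was well below 0 for Psmb8, and its second probe was also lowest there, at -0.22. Psmb9 and Psmb10 were among the brighter genes, at percentiles 89.4 and 94, while Psmb8 was dim, at percentile 27.5. Psmb11, the beta subunit of the thymic cortex, lay at percentile 2.9 with ratios of 0.0076, -0.24, 0.079 and -0.029, near the limit of what the array saw.

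The constitutive gene stood above its interferon-induced counterpart on every array at all 3 sites, by amounts that varied most between arrays at the hydrophobic site. Psmb6 exceeded Psmb9 by 0.103, 0.249, 0.246 and 0.274 on arrays 1 to 4, a mean of 0.218 ± 0.0777 (SD, n = 4). Psmb7 exceeded Psmb10 by 0.170, 0.242, 0.144 and 0.0299, a mean of 0.146 ± 0.0881 (SD, n = 4). Psmb5 exceeded Psmb8 by 0.0121, 0.545, 0.209 and 0.0475, a mean of 0.203 ± 0.243 (SD, n = 4), where array 2, with the highest Psmb5 and the lowest Psmb8, gave the largest gap. Each of these 3 differences, and of the other 4 pairs compared below, had a two-sided exact sign-flip p of 0.125, which is the smallest that 4 arrays allow, so no pair could pass 0.05 with or without adjustment over the 7 pairs. The pairs were picked with these ratios known. The gaps also moved with the balance of the dyes. With arrays centred only on their medians, Psmb6, Psmb7 and Psmb5 stood at 0.662, 0.612 and 0.587. In that setting Psmb9 and Psmb10 stood at 0.495 and 0.553, above the median of the brightest genes at 0.477, and the dim Psmb8 at 0.0277.

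**Figure D2:**
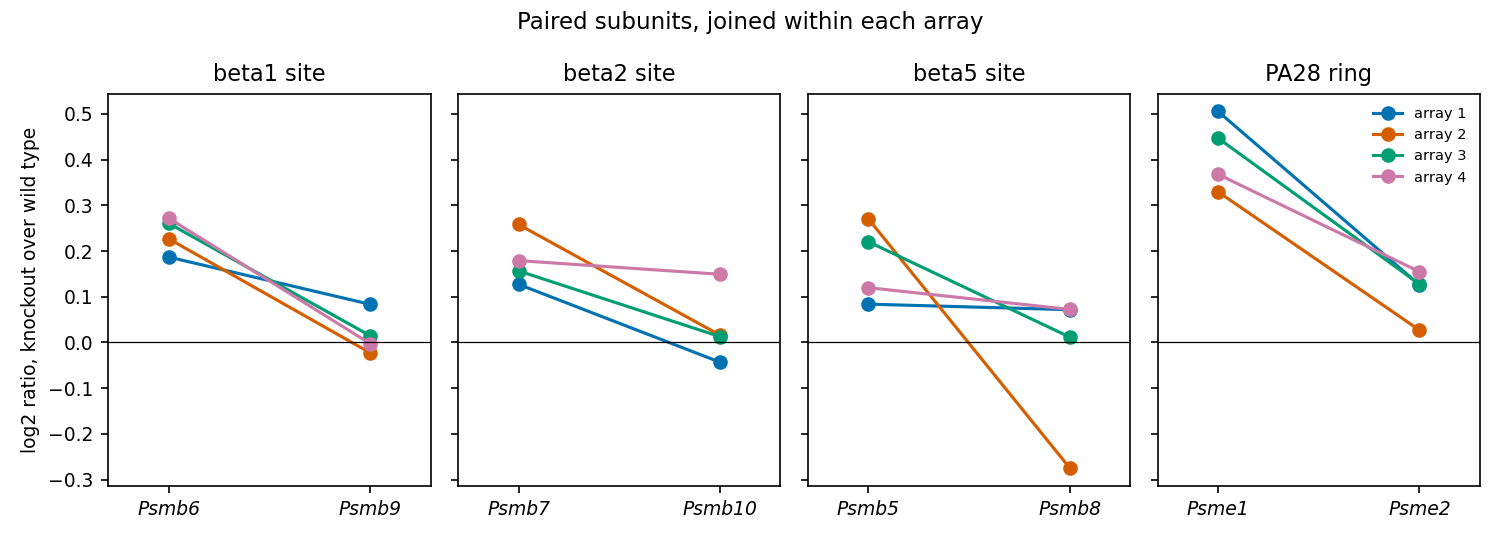
Log2 ratios of knockout over wild type (vertical axis) for 3 constitutive catalytic beta genes beside their interferon-induced counterparts, and for the 2 genes of the PA28 ring. Each line joins the 2 genes on 1 array, and all lines slope down from the first gene to the second.

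The activators showed the family's largest ratio and one of its smallest. Psme1, which encodes the alpha subunit of the PA28 ring that opens the barrel, had ratios of 0.51, 0.33, 0.45 and 0.37. Its mean of 0.41 (SE 0.049, limma adjusted p 0.00321) corresponds to 1.33-fold. It was the one member of the family that passed whichever array was left out, at 0.38 to 0.44 with adjusted p-values of 0.00673 to 0.0185. Compared as unpaired groups the adjusted p was 0.17.

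Psme2, the beta subunit of the same ring, had ratios of 0.13, 0.027, 0.13 and 0.15, a mean of 0.11 (SE 0.045, limma adjusted p 0.151), and did not pass. A second, dimmer probe of Psme2 gave 0.27, 0.098, 0.21 and 0.30 with a mean of 0.22, which passed in a fit of all single probes (limma adjusted p 0.0297). Psme1 exceeded Psme2's brighter probe by 0.304 ± 0.0689 (SD, n = 4) and Psmb9 by 0.394 ± 0.0389 (SD, n = 4), on 4 of 4 arrays in both cases. PA28 alpha and beta and the 3 induced beta genes are known as joint targets of interferon gamma, and in these arrays their ratios were spread from -0.030 to 0.41. Psme3, the nuclear PA28 gamma, had ratios of 0.16, 0.32, 0.30 and 0.15, above 0 on every array. Its mean was 0.23 (SE 0.050, limma adjusted p 0.0239), and the adjusted p was 0.0525 to 0.0932 with any array left out. Psme4, the large activator PA200, had ratios of -0.092, 0.061, -0.044 and 0.11 with a mean of 0.0074, and its 2 other probes had means of 0.020 and, over 3 arrays, -0.19.

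**Figure D3:**
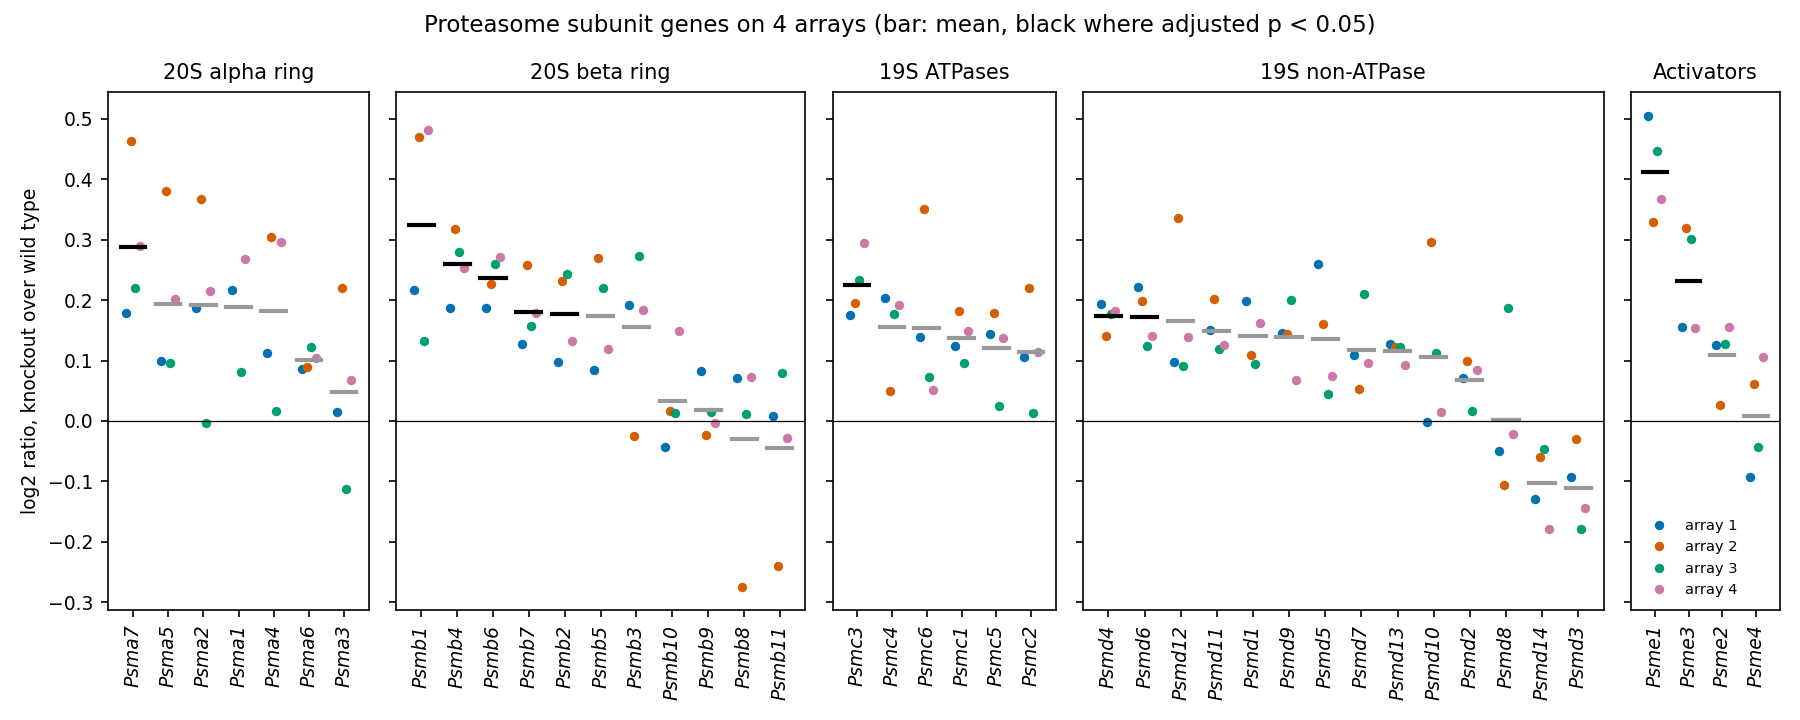
Log2 ratio of knockout over wild type (vertical axis) for each of the 42 genes on each of the 4 arrays (dots), by role and in order of the mean (bar, black where the limma adjusted p was below 0.05). Most dots lie above 0, the interferon-induced beta genes lie around 0, and Psmd14 and Psmd3 lie below 0 on all 4 arrays.

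The 6 ATPase genes, whose products form the ring that unfolds the substrate, were each above 0 on all 4 arrays, with means of 0.11 to 0.22. Of the 6, 1 passed (16.7%, against 9.45% of all genes and 12.2% of the brightest genes that were higher). Psmc3 had ratios of 0.18, 0.20, 0.23 and 0.30 and a mean of 0.22 (SE 0.045, limma adjusted p 0.0183), which became 0.0685 without array 3 and 0.0862 without array 4. Psmc2, the lowest, had ratios of 0.11, 0.22, 0.013 and 0.11. Psmc1, Psmc4, Psmc5 and Psmc6 had limma adjusted p-values of 0.0674 to 0.131. The second probes of Psmc4 and Psmc5 had means of 0.10 and 0.11, near the 0.16 and 0.12 of the probes used. The class medians by array were 0.142, 0.189, 0.0839 and 0.143.

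Of the 14 other genes of the regulatory particle and its assembly, 2 were higher, and 12 had mean ratios above 0. The share of higher genes was 14.3%, against 9.45% of all genes and near the 12.2% of the brightest genes. Psmd4 encodes a ubiquitin receptor of the particle. Its ratios were 0.19, 0.14, 0.18 and 0.18, among the closest of the family, and its mean was 0.17 (SE 0.042, limma adjusted p 0.0349, and 0.0547 to 0.128 with any array left out). Psmd6, a lid subunit, had ratios of 0.22, 0.20, 0.12 and 0.14 and a mean of 0.17 (SE 0.044, limma adjusted p 0.0412, and 0.0866 to 0.124 with any array left out).

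Like the beta ring, the lid, which holds the deubiquitinating enzyme, had means on both sides of 0, from -0.11 to 0.17 over 8 genes. Psmd14 encodes that deubiquitinase, and its ratios were -0.13, -0.060, -0.046 and -0.18, a mean of -0.10 (SE 0.046, limma adjusted p 0.175). A second probe of Psmd14 gave 0.16, 0.023, 0.047 and -0.12, so the sign of this gene depended on the probe. Psmd3, a structural lid subunit, had ratios of -0.094, -0.030, -0.18 and -0.14, a mean of -0.11 (SE 0.046, limma adjusted p 0.151). All 4 arrays were below 0 for both genes, neither passed, and with arrays centred only on their medians they stood at 0.33 and 0.42, below the median of the 3883 brightest genes at 0.477. Psmd4 exceeded Psmd14 by 0.277 ± 0.0775 (SD, n = 4) and Psmd6 exceeded Psmd3 by 0.283 ± 0.0382 (SD, n = 4), on 4 of 4 arrays each. Psmd8 had ratios of -0.050, -0.11, 0.19 and -0.022, a mean of 0.0019. The other lid genes, Psmd7, Psmd11, Psmd12 and Psmd13, had means of 0.12 to 0.17 and were above 0 on all arrays in the probes used. Dimmer probes of Psmd12 had means of 0.11 and 0.062, the first at -0.037 on array 1 and the second at -0.045 on array 4. The large base scaffolds Psmd1 and Psmd2, which hold shuttle proteins and the ring, had means of 0.14 and 0.068, and a second Psmd2 probe lay at -0.00044. Psmd5, Psmd9 and Psmd10, chaperones that build the ATPase ring, had means of 0.13, 0.14 and 0.10, none past the threshold, and a second Psmd9 probe had a mean of 0.19 that passed among all single probes (limma adjusted p 0.0441).

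In the single channels, the 4 knockout values lay above the 4 wild-type values without overlap for only Psmb1, Psmc3 and Psmd4 of the 42 members. This share is close to the 6.24% of all genes with values on 4 arrays, so it does not set the family apart. For Psmb1 the lowest knockout value, 12.28, was just above the highest wild-type value, 12.27. Psmb1 had normalized log2 signals of 12.49, 12.62, 12.35 and 12.28 in the knockout and 12.27, 12.15, 12.22 and 11.80 in the wild type. Psmd4 had 11.32, 11.37, 11.37 and 11.31 in the knockout against 11.12, 11.23, 11.19 and 11.12 in the wild type.

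The genes that assemble the proteasome had a median ratio of 0.135, beside 0.145 for the subunits. Of 11 tested, 1 was higher (9.09%), which is near the 9.45% of all genes. The list includes Psmd5, Psmd9 and Psmd10. Psmg1, which with Psmg2 starts the alpha ring, had ratios of 0.21, 0.29, 0.062 and 0.20 and a mean of 0.19 (SE 0.052, limma adjusted p 0.0455, and 0.055 to 0.141 with any array left out). Psmg2, Psmg3 and Psmg4, the other members of the early assembly chaperones, had means of 0.22, 0.16 and 0.18 and did not pass, with limma adjusted p-values of 0.0511, 0.0508 and 0.0541. With Feature Extraction's own log ratio Psmg3 was 0.37 and Psmg1 0.24, which passed (limma adjusted p 0.0231 and 0.0339). Psmg2 at 0.13 and Psmg4 at 0.19 did not (limma adjusted p 0.178 and 0.087). Psmg3 was dim, at percentile 17.4, and with median centring it stood at 0.047 (limma adjusted p 0.438). Psmg1, Psmg2 and Psmg4 then stood at 0.55, 0.536 and 0.457, and the median of all genes at 0.255. In the main fit Psmg1, Psmg2, Psmg3 and Psmg4 were above 0 on every array. Pomp, which joins the parts of the barrel and is lost in the process, was brighter and stood at 0.030, with ratios of 0.014, 0.019, 0.056 and 0.032.

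The proteins that dock on the proteasome had no such common ratio. Of 13 tested, 1 was higher (7.69%, against 9.45% of all genes), and the list's median was 0.0016. Sem1, a small lid subunit that the naming rule leaves out, was the one that rose, with ratios of 0.21, 0.47, 0.20 and 0.39 and a mean of 0.32 (SE 0.060, limma adjusted p 0.0151, and 0.0622 without array 4). Adrm1, the ubiquitin receptor that anchors a deubiquitinase, had ratios of -0.30, -0.14, -0.17 and -0.051. Its mean of -0.16 did not pass (limma adjusted p 0.0777) and was -0.030 with the gene's probes averaged and 0.31 with median centring. Psmf1, an inhibitor of the barrel, had a mean of 0.057.

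Known regulators of proteasome gene transcription moved in both directions, with 2 of 13 higher (15.4%) and 3 lower, against 9.45% and 5.11% of all genes. Nfe2l1, which encodes NRF1, the factor that raises proteasome genes when the complex is short, had ratios of -0.052, 0.013, -0.058 and 0.00070 and a mean of -0.024 (limma adjusted p 0.75). Nfe2l2, which encodes NRF2, had a mean of 0.14 (limma adjusted p 0.0894). Keap1, the adaptor that sends NRF2 to degradation, rose by 0.20 (SE 0.044, limma adjusted p 0.0232), a call kept without array 2 and lost without any other, at most 0.0971. Mafk, a partner of the NRF factors, had a mean of -0.27 (SE 0.046, limma adjusted p 0.0116, and 0.0529 without array 4). The NF-Y subunits split, with Nfyc at 0.17 (limma adjusted p 0.0438) and Nfya at -0.21 (limma adjusted p 0.0496). Hsf1, the heat shock factor, stood at -0.17 (limma adjusted p 0.0441). Nfyc, Nfya and Hsf1 each lost the call with any array left out (adjusted p-values of 0.0581 to 0.166, 0.0857 to 0.123 and 0.0813 to 0.162). With a gene's probes averaged, Nfya stood at -0.12 and Hsf1 at -0.040 (limma adjusted p 0.13 and 0.541), and with median centring they stood at 0.11 and 0.29, and Mafk at -0.050.

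The interferon-induced genes of antigen processing had a median of -0.0493, with none of 19 higher and 1 lower. Across all genes 9.45% were higher and 5.11% lower, so 1 lower gene is near the share of all genes. B2m, the light chain of MHC class I, had ratios of -0.27, -0.40, -0.22 and -0.15 and a mean of -0.26 (SE 0.054, limma adjusted p 0.0203). The call was lost without array 1 or 3, at most 0.0699, and the ratio turned to 0.12 with median centring. Isg15, an interferon response gene, had its lowest ratio on array 2, at -0.82, the array on which Psmb8 was lowest too. The leukocyte markers, of which 14 of 16 were tested and none passed, had array medians of 0.0929, -0.222, 0.125 and -0.0114, with array 2 again the lowest. The part of these cells in the Psmb8 ratio was not tested.

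Other gene lists of protein quality control had medians of 0.0101 to 0.112. The chaperonin TRiC, which folds cytosolic proteins, had 1 of 9 higher (Tcp1, 0.24, limma adjusted p 0.0303) and a median of 0.112. The COP9 signalosome, a relative of the proteasome lid, had 2 of 9 higher (Cops5 at 0.22 and Cops4 at 0.18, limma adjusted p 0.0247 and 0.0488) and a median of 0.0989. Each of these 3 calls was lost without 1 or more arrays, at adjusted p-values of up to 0.102, 0.0926 and 0.136. The genes of VCP and endoplasmic reticulum-associated degradation, which send misfolded secretory proteins to the proteasome, had a median of 0.0513, with Edem2 higher (0.37, limma adjusted p 0.0118) and Ube2j1 lower (-0.23 on 3 arrays, limma adjusted p 0.0408, lost with any array left out) among 17. The autophagy genes had a median of 0.0101, with Atg12 lower (-0.31, limma adjusted p 0.00771) among 17. With median centring Atg12 stood at 0.13 and Ube2j1 at 0.22, and Atg12 was -0.19 with its probes averaged. The shares of higher genes were 11.1% for TRiC, 22.2% for COP9, 5.88% for the VCP list and 0% for autophagy. Across all genes 9.45% were higher and 5.11% lower.

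The cell cycle genes had a higher median than the proteasome subunits, 0.261, with 13 of 20 higher (65%) and 1 lower, against 9.45% and 5.11% of all genes. Mki67, a marker of cycling cells, had ratios of 0.63, 0.57, 0.61 and 0.57, Ccna2 a mean of 0.50 and Tyms a mean of 0.46, and Mcm5 had a mean of -0.76. These genes had array medians of 0.314, 0.248, 0.219 and 0.266, against 0.126, 0.183, 0.116 and 0.138 for the proteasome family. Both lists were above 0 on each array, with the cell cycle genes highest on array 1 and the proteasome genes on array 2. The part of cycling cells in the proteasome ratios was not tested.

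**Figure D4:**
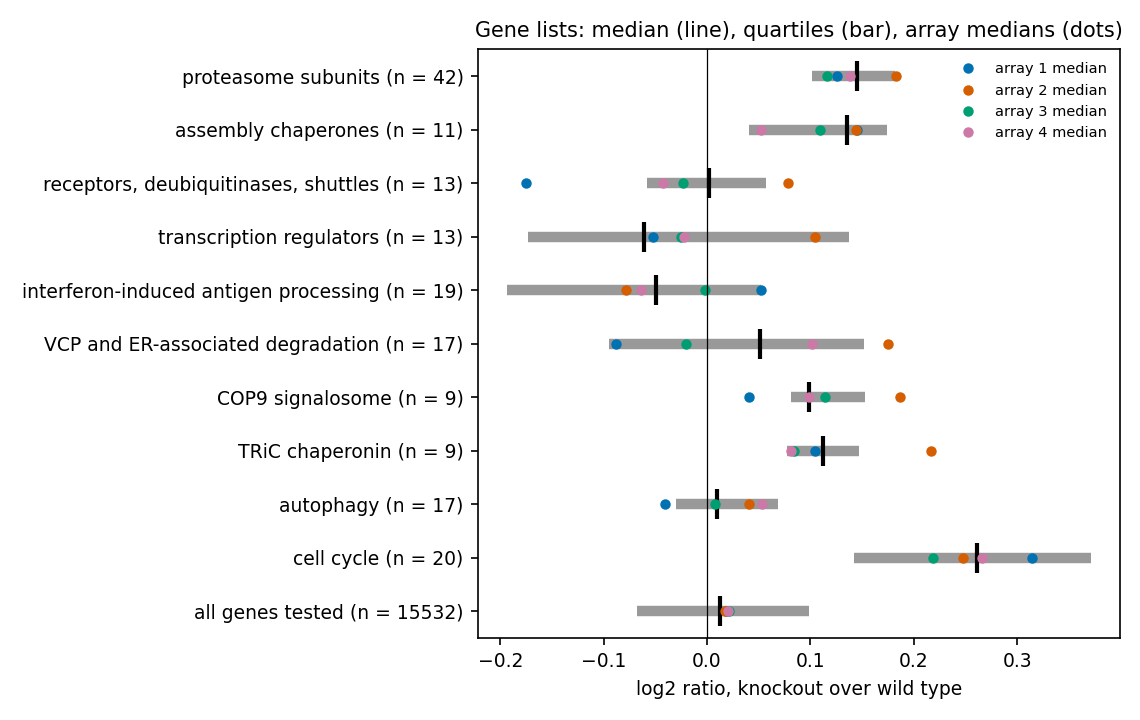
Median (line), quartiles (bar) and array medians (dots) of log2 ratios, knockout over wild type (horizontal axis), for the proteasome subunits, 9 related gene lists and all genes tested. The array medians of the proteasome subunits, 0.116 to 0.183, all lie above 0, and those of the interferon-induced antigen processing genes fall on both sides of 0.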

How the data were processed

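The submitters' processing notes name Agilent Feature Extraction 10.5.1.1 for reading the scans. The deposited files give, per the file headers, red and green spot and background signals and processed signals as intensity on a linear scale, and a log10 ratio of red over green. The planned mean signals were replaced by the files' median signals. These were background-corrected (normexp, offset 50) and loess-normalized within each array in limma 3.58.1 (R 4.3.3), and expressed as log2 ratios computed here from the deposited intensities. Control spots and non-uniform spots (599 to 988 per array) were left out, and spots of a probe were averaged. A probe was kept if well above background in either dye on 3 or more of 4 arrays, with values on at least 3. Of 41174 probes, 61% were named by matching their accession, without version, to RefSeq transcripts (GRCm38.p6), and the brightest probe stood for a gene. The log2 ratio of 15532 genes was tested against 0 (lmFit, eBayes, Benjamini-Hochberg, threshold 0.05). Genes on 3 arrays numbered 601.

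The members, gene lists, pairs and motifs were chosen with earlier results of these data known. All members may be named. Values by array are given for catalytic, interferon-induced and activator genes, members past the threshold, extremes of each class and genes whose probes disagree. From other lists the text names up to 4 genes past the threshold with the smallest p, plus Nfe2l1, Pomp and Psmf1. Psmg2, Psmg3, Psmg4, Adrm1, Nfe2l2, Nfya, Isg15, Irf1, Tap1, Alb and Tek were named after their values were seen. Alternatives changed the background correction, scaling, filters, probe choice, test and arrays. Some results are not reported here. The number of arrays limits the precision. The fit was tested on simulated log2 ratios of genes, which did not cover background correction, loess, filters or probe choice.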

Additional observations from a re-analysis of the deposited data

Results flagged for a closer look

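Across 82 sets of 4 array values (genes and medians of gene classes), 4 had 1 array that stood apart from the other 3 by a margin that chance gives in about 1 of 20 sets. Psmd13, a lid subunit, had a ratio of 0.0929 on array 4, where the nearest of the others was 0.122. The 4 values of Psmd13 differed little (SD 0.0157), so the gap is small in size. Irf1, an interferon response factor, had a ratio of -0.0826 on array 4, where the nearest other value was 0.0607. Tap1, which carries peptides for antigen presentation, had a ratio of 0.377 on array 1, where the nearest other value was 0.0709. Isg15, a ubiquitin-like protein induced by interferon, had a ratio of -0.822 on array 2, where the nearest other value was -0.147.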

How the results depend on the processing

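The family median of 0.145 was 0.133 to 0.154 in all alternatives but median centring, which gave 0.564. The count of 11 higher members was 8 to 14 with other background corrections, Feature Extraction's processed signals or log ratio, other probe filters and choices, a trended robust fit or array weights, against 7.37 to 10.3% of all genes. It was 40 with median centring (and 1 lower, Psmb11), against 61% of all genes higher and 15.8% lower, 4 with scaling between arrays (4.5%), 0 for single channels without the replicate block that pairs the dyes of an array (0.489%), and 1 to 7 with an array left out (4.1 to 6.4%). With median centring the ratios of Psmd3 (0.422), Psmd14 (0.33), Adrm1 (0.311), Atg12 (0.13), B2m (0.117), Hsf1 (0.287), Nfe2l1 (0.33), Nfya (0.107), Ube2j1 (0.223) and Tap1 (-0.244) changed sign. That setting leaves the dependence of the ratio on brightness in place. The cause of the other changes was not tested.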
